A study of Mus musculus with 10 samples.

Results

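Among 9 genes for transcription factors of the embryonic epidermis, Grhl1, Zfp750 and Cebpa were lower in the E14.5 pinna of mEC1dup/dup embryos than in wild type (WT), and no member of the set was called higher. The set holds Trp63, Klf5, Grhl1, Grhl2, Grhl3, Klf4, Ovol1, Zfp750 and Cebpa. The members were chosen by name for their roles in epidermal development, with earlier results of these data known, and their rows were found by Ensembl identifier among the 53465 genes of the count table. All 9 had a row and all 9 passed the filter on low counts, as did 16426 genes in all. The RNA came from whole pinna prominences, the outgrowths that form the external ear, dissected at E14.5 from 5 WT embryos and 5 mEC1dup/dup embryos on a C57BL/6J background. The mEC1dup/dup embryos were homozygous for a CRISPR/Cas9 knock-in that placed a second copy of mEC1, an enhancer of Hmx1, on each allele. WT embryos carried the unmodified locus, and no group received a treatment. The study's reporting form describes replicates as siblings taken from different litters, and neither it nor the labels say which embryos shared a litter or what the replicate numbers 1 to 5 mark. Because the tissue was whole, epithelial cells were 1 component among fibroblasts, cartilage, muscle, vessels and blood, and for every gene below fewer epithelial cells and less RNA per cell cannot be told apart.

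The epidermis starts as a single layer of surface ectoderm. Trp63 encodes p63, which holds cells in the stratified epithelial lineage and drives basal keratins, and Klf5 encodes a Krüppel-like factor of proliferating basal cells. The grainyhead-like genes Grhl1, Grhl2 and Grhl3 encode related factors that bind the same DNA motif and act on cell junctions and barrier formation. Klf4, Ovol1, Zfp750 and Cebpa encode factors of cells that leave the basal layer: Klf4 for barrier formation, Ovol1 for the exit from proliferation, Zfp750 as a p63 target needed for terminal differentiation, and Cebpa for the arrest of basal cells as they differentiate.

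Libraries held between 17461544 and 18462073 counts. Epithelial genes (Epcam, Cldn7, Krt5) and fibroblast genes (Pdgfra, Prrx1) had at least 72 counts in every library, so the labelled tissue carried both. Hmx1, the gene that the duplicated enhancer regulates, checked the labels: in units of CPM, the count scaled to the library total after TMM normalization, it measured 26.6 ± 3.0 (mean ± SD, n = 5) in WT and 66.2 ± 9.11 in mEC1dup/dup, and the groups did not overlap (log2 fold change 1.31, edgeR adjusted p = 0.000127). A pair of other library features moved with genotype. Xist, a transcript of the inactive X chromosome, had at most 5 counts in any WT library and 12812, 19040, 18165, 2096 and 0 counts in mEC1dup/dup embryos 1 to 5. The share of embryonic chains (Hbb-y, Hbb-bh1 and Hba-x) in all globin counts, which falls as definitive red cells replace primitive ones, was 18.4% to 23.3% in WT and 32.5% to 35.6% in mEC1dup/dup. The first feature left mEC1dup/dup embryo 5 on the WT side, while the second separated the groups completely. For the blood feature, its part in the results and that of genotype cannot be told apart. The sex of the embryos is not in the labels. Only mEC1dup/dup embryo 5 had Xist counts as low as WT, so the part of Xist and that of genotype can hardly be told apart.

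A gene is called here when edgeR's quasi-likelihood test, fitted over all tested genes, gave a p that was at most 0.05 after Benjamini-Hochberg adjustment and when the log2 CPM averaged over the embryos reached 1. By this rule 3 of the 9 factors were lower in mEC1dup/dup, where 1.81% of all tested genes were called lower (297 genes). Leaving out 1 embryo at a time gave 1 factor (6 of 10 fits), 3 factors (3 fits) or 4 factors (without WT embryo 4), and between 120 genes (without mEC1dup/dup embryo 3) and 476 genes (without WT embryo 4) called lower. None was higher with edgeR, where 0.834% of all genes were (137 genes), and no factor was higher with DESeq2 or limma-voom either or at an unadjusted p under 0.05. The fitted log2 fold changes were below 0 for 8 of the 9 factors, and their median was -0.44 beside -0.0041 for all tested genes. At an unadjusted p under 0.05, 7 factors were lower (Trp63, Klf5, Grhl1, Grhl3, Ovol1, Zfp750 and Cebpa), beside 9.08% of all tested genes. For 2 factors, Grhl1 and Cebpa, every mEC1dup/dup embryo lay below every WT embryo, an arrangement seen in 2.75% of tested genes. The opposite arrangement was seen in 2.33% of tested genes and in no factor.

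**Figure D1:**
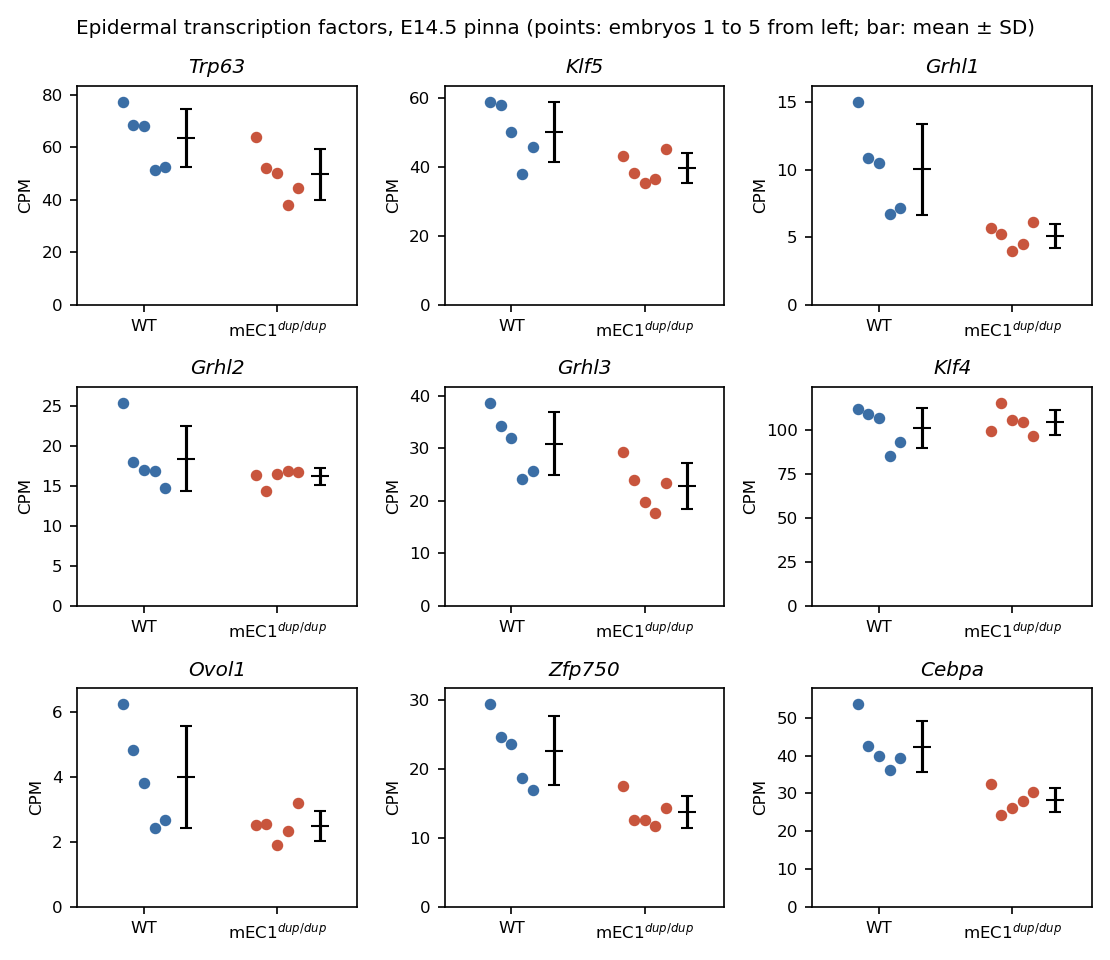
CPM of each factor (vertical axes, from 0) in every embryo; blue points are the 5 WT embryos and red points the 5 mEC1dup/dup embryos, in replicate order from left to right, and black bars give the mean ± SD. The groups are apart for Grhl1 and Cebpa, touch at 1 embryo for Zfp750, and overlap for Klf4 (85.4 to 112 CPM in WT, 97.0 to 115 in mEC1dup/dup).

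The sequences in front of the genes are shown for the factors that have an entry in the RefSeq promoter table, so that a pair of called genes, Grhl1 and Cebpa, can be set beside Klf4 and Grhl3, which were not called. RefSeq windows (table build GRCm38.p6) existed for 4 of the 9 factors; each window of 250 bases before a transcription start matched 1 place in GRCm39, and the bases below are those that lie before the annotated gene start, 5′ to 3′ on the strand of the gene. Trp63, Klf5, Grhl2, Ovol1 and Zfp750 had no entry. Capitals mark matches to CCNCACCC, the letters used for Krüppel-like factors, on either strand.
Grhl1, chr12:24622036-24622196 (GRCm39, plus strand): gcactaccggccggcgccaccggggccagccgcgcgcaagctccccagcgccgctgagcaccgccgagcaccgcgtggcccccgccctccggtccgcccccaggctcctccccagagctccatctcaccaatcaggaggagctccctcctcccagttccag
Cebpa, chr7:34818468-34818717 (GRCm39, plus strand): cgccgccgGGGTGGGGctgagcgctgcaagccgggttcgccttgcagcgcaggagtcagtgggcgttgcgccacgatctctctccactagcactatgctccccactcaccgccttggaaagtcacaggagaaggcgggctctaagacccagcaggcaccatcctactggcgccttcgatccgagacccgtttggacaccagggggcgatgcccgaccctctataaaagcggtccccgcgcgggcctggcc
Klf4, chr4:55532529-55532725 (GRCm39, minus strand): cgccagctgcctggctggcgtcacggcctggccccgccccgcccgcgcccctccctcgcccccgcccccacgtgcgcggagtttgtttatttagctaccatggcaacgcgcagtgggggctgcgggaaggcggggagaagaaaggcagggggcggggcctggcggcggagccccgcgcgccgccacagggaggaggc
Grhl3, chr4:135300993-135301193 (GRCm39, minus strand): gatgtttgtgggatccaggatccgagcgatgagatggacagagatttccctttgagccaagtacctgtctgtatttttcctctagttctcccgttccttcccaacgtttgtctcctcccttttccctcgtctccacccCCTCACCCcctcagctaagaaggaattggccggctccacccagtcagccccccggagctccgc

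The window at the first Grhl1 start and that of Klf4 were the richest in G and C, with 75.6% and 74% over the whole 250 bases. They were followed by Cebpa with 66.4%, Grhl3 with 56% and the window of a second Grhl1 start, inside the gene, with 52%. CCNCACCC was found once in the Cebpa window and once in the Grhl3 window, and it occurs in 14.9% of the 32851 windows of the table. The other motifs searched on both strands were CAAGTG, the core of HMX sites, which is in 11.6% of all windows, AACCNGTT for grainyhead factors, in 1.79%, and TTGCNNAA for C/EBP factors, in 9.56%. These 3 sets of letters were in none of the windows, including that of the second Grhl1 start. No match overlapped another. A match is a description of letters, and its absence says only that those letters are not in the window.

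Of the lineage factors, Trp63 (ENSMUSG00000022510, chr16:25502513-25710852, plus strand, with 8 annotated transcripts whose isoforms the gene counts cannot separate) was present in WT embryos 1 to 5 at 77.2, 68.4, 68.0, 51.5 and 52.7 CPM. In the mEC1dup/dup embryos it was present at 64.1, 52.1, 50.3, 38.0 and 44.6 CPM. Within both genotypes embryos 4 and 5 were the lowest, and the groups overlapped. The means were 63.6 ± 11.1 and 49.8 ± 9.71 CPM, with a log2 fold change of -0.35 (SE 0.14, 95% interval -0.65 to -0.056), and Trp63 was not called (edgeR adjusted p = 0.217).

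Klf5 (ENSMUSG00000005148, chr14:99536086-99552473, plus strand) measured 58.6, 57.8, 50.1, 37.9 and 45.6 CPM in WT embryos 1 to 5 and 43.1, 38.1, 35.4, 36.5 and 45.2 CPM in mEC1dup/dup. WT embryo 4 lay within the mEC1dup/dup range and WT embryo 5 just above its upper end. The log2 fold change was -0.33 (SE 0.11, 95% interval -0.58 to -0.094) and the edgeR adjusted p was 0.143, so Klf5 was not called. Without WT embryo 4 the edgeR adjusted p was 0.0184 and Klf5 was called lower.

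Grhl1 had the largest fitted decrease of the set. The gene (ENSMUSG00000020656, chr12:24622197-24669816, plus strand) gave 15.02, 10.9, 10.5, 6.70 and 7.14 CPM in WT embryos 1 to 5 and 5.66, 5.24, 3.96, 4.48 and 6.12 CPM in mEC1dup/dup. These CPM values rested on 121 to 260 counts in WT and 73 to 113 in mEC1dup/dup. The lowest WT embryo still lay above the highest mEC1dup/dup embryo, and the WT embryos were spread widely, with a coefficient of variation of 33.5%, of which counting alone would give 7.48%. The mean was 10.04 ± 3.36 CPM in WT and 5.09 ± 0.872 in mEC1dup/dup, 50.7% of the WT mean. The log2 fold change was -0.98 (SE 0.21, 95% interval -1.43 to -0.52; edgeR adjusted p = 0.0273). The call did not hold in 6 of the 10 fits that left out 1 embryo (WT 1, 2 or 3 and mEC1dup/dup 2, 3 or 4), with edgeR adjusted p between 0.00717 and 0.0862 over the 10 fits, nor with limma-voom (adjusted p = 0.0501).

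Grhl2 and Grhl3 were not called. Grhl2 (ENSMUSG00000022286, chr15:37233280-37363813, plus strand), which supports epithelial junctions in many epithelia, measured 25.3, 17.99, 16.9, 16.8 and 14.7 CPM in WT and 16.3, 14.3, 16.5, 16.9 and 16.7 CPM in mEC1dup/dup. Apart from WT embryo 1, the embryos of both genotypes lay within a narrow range. The log2 fold change was -0.18 (SE 0.12, 95% interval -0.45 to 0.084; edgeR adjusted p = 0.518), and without WT embryo 1 it was -0.040 (edgeR adjusted p = 0.879). Exons of the antisense genes Ncald and Gm16136 lie over 5.18% of its exonic bases; Gm16136 had 235 to 316 counts in WT and 162 to 221 in mEC1dup/dup, beside 265 to 438 and 260 to 313 for Grhl2, and the strand setting of the counting was not given in the sources used here. Grhl3 (ENSMUSG00000037188, chr4:135268329-135300992, minus strand), which is needed for closure of the skin barrier, measured 38.6, 34.3, 31.9, 24.1 and 25.6 CPM in WT and 29.2, 23.9, 19.8, 17.6 and 23.4 CPM in mEC1dup/dup. Here 4 of the 5 mEC1dup/dup embryos lay below the lowest WT embryo, and embryo 1 did not. The log2 fold change was -0.44 (SE 0.15, 95% interval -0.75 to -0.12; edgeR adjusted p = 0.141), and DESeq2 called Grhl3 lower (adjusted p = 0.0468).

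The ratio between family members within an embryo does not depend on the library total. The log2 ratio of Grhl1 to Grhl2 lay between -1.31 and -0.69 in WT and between -2.03 and -1.43 in mEC1dup/dup, and the groups were apart (difference of means -0.76). Against Grhl3, the log2 ratio of Grhl1 lay between -1.83 and -1.35 in WT and between -2.35 and -1.92 in mEC1dup/dup, again without overlap (difference -0.48). The Grhl2 to Grhl3 ratio overlapped between the genotypes, with a difference of 0.28. Of all 36 ratios between a pair of factors, 10 did not overlap between genotypes, beside 5.32% of the ratios between any pair of tested genes at the same minimum level. Each factor enters 8 of the 36 ratios, so they are not independent. Grhl1 was part of 5 of them, with Grhl2, Grhl3, Ovol1, Klf4 and Klf5. The other 5 set Klf4 against Zfp750 (difference 0.75) and against Cebpa (0.63), Grhl2 against Zfp750 (0.54) and against Cebpa (0.42), and Trp63 against Zfp750 (0.35). The ratios are descriptions, and no test was made on them.

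Klf4 had the fitted change nearest 0 of the 9 factors. The gene (ENSMUSG00000003032, chr4:55527139-55532528, minus strand) measured 112, 109, 107, 85.4 and 93.2 CPM in WT and 99.8, 115, 106, 104.5 and 97.0 CPM in mEC1dup/dup. All 5 mEC1dup/dup embryos were above the lowest WT embryo, and the means were 101 ± 11.5 and 104.5 ± 7.06 CPM. The log2 fold change of 0.05 (SE 0.07; edgeR adjusted p = 0.818) had a 95% interval from -0.11 to 0.20, and it was -0.013 without WT embryo 4.

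Zfp750 (ENSMUSG00000039238, chr11:121401804-121410620, minus strand) measured 29.4, 24.6, 23.6, 18.7 and 16.9 CPM in WT and 17.5, 12.6, 12.6, 11.7 and 14.3 CPM in mEC1dup/dup. The single overlap was mEC1dup/dup embryo 1, which lay above WT embryo 5. The means were 22.6 ± 4.93 and 13.7 ± 2.29 CPM, so that mEC1dup/dup stood at 60.7% of WT, with a log2 fold change of -0.72 (SE 0.15, 95% interval -1.04 to -0.40; edgeR adjusted p = 0.0225). As for Grhl1, the call did not hold without WT embryo 1, 2 or 3 or mEC1dup/dup embryo 2, 3 or 4, with edgeR adjusted p from 0.0102 to 0.0738 over the 10 fits. Exons of Tbcd on the other strand lie over 2.55% of its exonic bases, and Tbcd itself had a log2 fold change of 0.03.

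Cebpa had the smallest adjusted p of the 9 factors. The gene (ENSMUSG00000034957, chr7:34818718-34821353, plus strand) measured 53.6, 42.7, 39.96, 36.3 and 39.3 CPM in WT and 32.5, 24.3, 26.1, 27.9 and 30.5 CPM in mEC1dup/dup. No embryo of one genotype lay within the range of the other, and WT embryo 1 was well above the other WT embryos. The means were 42.4 ± 6.69 and 28.2 ± 3.29 CPM, so that mEC1dup/dup stood at 66.7% of WT, with a log2 fold change of -0.58 (SE 0.11, 95% interval -0.81 to -0.36; edgeR adjusted p = 0.0126). The call held in all 10 fits that left out 1 embryo, with edgeR adjusted p from 0.00498 to 0.0469. Cebpa also acts in fat cell precursors. Of the adipogenic list, Fabp4 and Pparg could be tested; Fabp4, a fatty acid binding protein, was lower by 0.94 on the log2 scale (edgeR adjusted p = 0.0126), and Pparg, the master regulator of fat cells, had a log2 fold change of -0.70 and was not called (edgeR adjusted p = 0.199). The summed CPM of the list was 9.43 to 13.9 in WT and 4.68 to 8.93 in mEC1dup/dup, while the fat cell genes Adipoq and Plin1 had 0 to 3 counts in every library. The part of such cells in the Cebpa result was not tested.

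Ovol1 (ENSMUSG00000024922, chr19:5599164-5610674, minus strand) had the fewest counts of the set, 44 to 108 in WT and 35 to 59 in mEC1dup/dup. Its CPM was 6.24, 4.82, 3.82, 2.44 and 2.66 in WT and 2.51, 2.54, 1.90, 2.32 and 3.19 in mEC1dup/dup. WT embryos 1 to 3 lay above all mEC1dup/dup embryos and WT embryos 4 and 5 among them. The log2 fold change was -0.68 (SE 0.25, 95% interval -1.23 to -0.13; edgeR adjusted p = 0.199), a fitted change close to that of Zfp750 that was not called. Exons of the antisense genes 1810058N15Rik and Gm59143 lie over 29.4% of its exonic bases, and neither has a row in the count table, so part of the Ovol1 counts may be theirs if the counting did not use strand.

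**Figure D2:**
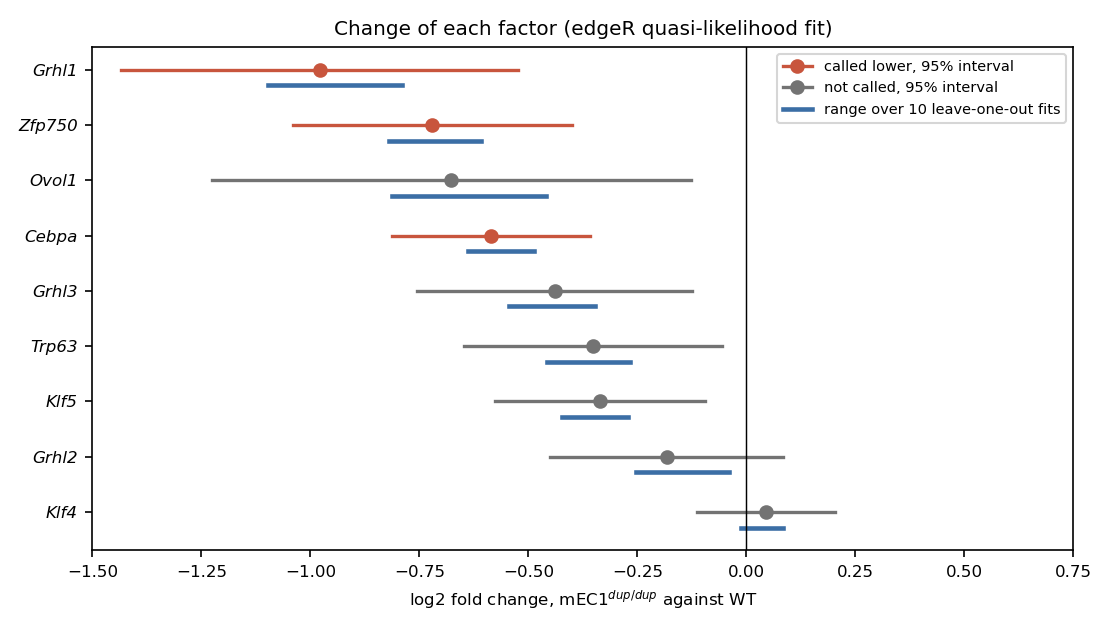
Fitted log2 fold change of each factor (horizontal axis, mEC1dup/dup against WT) with its 95% interval, red where called lower and grey where not, and in blue the range over the 10 fits that each left out 1 embryo. The fitted changes run from -0.98 for Grhl1 to 0.05 for Klf4.

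On a scale per length, as CPM divided by the length of the annotated exons in kilobases (RPKM), the WT levels ran from Klf4 at 32.2 ± 3.64, through Cebpa at 16.1 ± 2.54, Klf5 at 9.54 ± 1.65, Grhl3 at 8.30 ± 1.62, Trp63 at 7.58 ± 1.32, Zfp750 at 6.13 ± 1.34, Grhl2 at 2.13 ± 0.473 and Ovol1 at 1.15 ± 0.452 to Grhl1 at 0.639 ± 0.214. In mEC1dup/dup the order of the means was the same, from Klf4 at 33.2 ± 2.24 and Cebpa at 10.7 ± 1.25 to Ovol1 at 0.715 ± 0.134 and Grhl1 at 0.324 ± 0.0555. The neighbours Klf5 and Grhl3, Grhl3 and Trp63, Trp63 and Zfp750, Grhl2 and Ovol1, and Ovol1 and Grhl1 overlapped in their WT ranges, whereas Klf4, Cebpa and Klf5 were apart from each other, as were Zfp750 and Grhl2. The lengths count every annotated exon of a gene, 15719 bases for Grhl1, so a gene with exons that the pinna does not use is placed too low.

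The spread among WT embryos was shared between the factors. WT embryo 1 was the highest WT embryo for 9 of 9 factors, and the lowest was WT embryo 4 for 7 factors and WT embryo 5 for the remaining 2. WT embryos 1, 2 and 3 each lay above every mEC1dup/dup embryo for 8 factors, WT embryos 4 and 5 for only 3. The mEC1dup/dup embryos had no such common order: the highest was embryo 1 for 4 factors, embryo 5 for 3 and embryos 2 and 4 for 1 each, and the lowest was embryo 3 or 4 for 3 factors each, embryo 2 for 2 and embryo 5 for 1. Of these embryos, embryo 1 lay below every WT embryo for 2 factors, embryos 2 and 5 for 5, and embryos 3 and 4 for 7. Such counts per embryo were not made over all tested genes. The factors also varied together, so the counts do not stand for separate results. The embryonic globin share also varied within WT, from 18.4% in embryo 1 to 23.3% and 23.1% in embryos 4 and 5. Deviations of a factor from its genotype mean ran against those of the globin share, with Pearson's r over the 10 embryos from -0.86 for Grhl1 to -0.35 for Trp63. This is a description of libraries that share their depth and composition. When the share was added to the edgeR fit, no gene was called (793 genes had an unadjusted p under 0.05). The share does not overlap between genotypes, so the fit has little left to tell them apart. In it 8 of the factors took the opposite sign, Grhl1 with 1.61 and Cebpa with 0.52 (edgeR adjusted p = 0.898 for both). When Xist was added, 3 genes were called and none of them was a factor. That fit kept a negative sign for Grhl1 (-0.82), Zfp750 (-0.73) and Cebpa (-0.50; edgeR adjusted p = 0.486, 0.391 and 0.391). Only mEC1dup/dup embryo 5 had Xist counts as low as WT, so this fit too has little left to tell genotype apart.

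**Figure D3:**
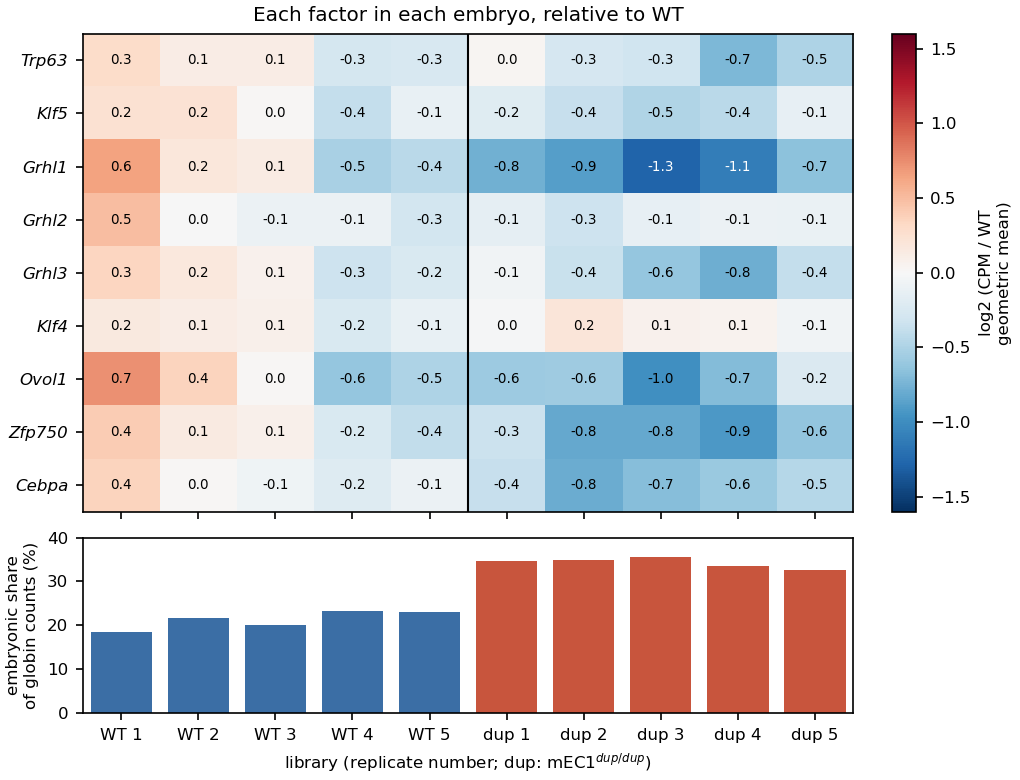
Colours and numbers give the log2 ratio of each factor's CPM in each embryo to the geometric mean of WT (rows, factors; columns, embryos; dup, mEC1dup/dup), and bars below give the embryonic share of globin counts in percent. WT embryo 1 is the reddest WT column and mEC1dup/dup embryos 3 and 4 are the bluest, while every mEC1dup/dup globin share exceeds the WT shares.

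Between pairs of factors, the deviations from the genotype means correlated with r between 0.25 (Klf4 and Cebpa) and 0.97 (Grhl1 and Ovol1) over the 10 embryos. Trp63 was closest to Grhl3 (r = 0.92, Spearman's rho = 0.98) and Zfp750 also to Grhl3 (r = 0.92, rho = 0.90). Klf5 was closest to Ovol1 (r = 0.92) and Grhl1 (r = 0.91), and Grhl2 was closest to Cebpa (r = 0.80). Among all 14028 tested genes outside the set that had a symbol and reached the minimum level, the genes whose deviations were most like those of each factor were Dennd2c, Strada and Erap1 for Trp63 (r = 0.99, 0.97 and 0.96), and Igsf9, Trp53bp2 and Csf2ra for Klf4 (r = 0.96, 0.95 and 0.95). For Klf5 they included Sh3d19 and Gm49284 (r = 0.95 for both). For Grhl1 they were Cln3, Zfp677 and Tgm1, the transglutaminase of the cornified envelope (r = 0.97, 0.96 and 0.96). For Grhl2 they were Gltp, Lgals7 and Scarf1 (r = 0.96, 0.94 and 0.93), and for Grhl3 they were Adam33, Sptlc3 and Sema3f (r = 0.98, 0.98 and 0.97). Large2, Cd109 and Tcf20 were most like Ovol1 (r = 0.96, 0.95 and 0.95), Cblc, Pak6 and Trim29 most like Zfp750 (r = 0.98, 0.97 and 0.97), and Gm10638, S100a16 and Nipal4 most like Cebpa (r = 0.92, 0.91 and 0.91). Of the genes named for their likeness to a factor only Gltp, the glycolipid transfer protein, was itself called, with a log2 fold change of -0.45 (edgeR adjusted p = 0.00931). The coefficients are the highest of 14028 and are given as a description.

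A reference of 6 genes found in most epithelia (Epcam, Cldn7, Ap1m2, Spint1, St14 and Esrp2) set the factors against other epithelial RNA of the same library. None of the 6 was called with edgeR (1 had an unadjusted p under 0.05, and DESeq2 called 1 and limma-voom 0), their log2 fold changes lay between -0.57 and 0.04, and their mean log2 CPM was 4.29 ± 0.15 in WT and 4.11 ± 0.09 in mEC1dup/dup, with overlap. Relative to this reference, the mean of Grhl1 differed by -0.74 log2 units in mEC1dup/dup, and it was the 1 factor whose groups stayed apart (WT -1.42 to -0.61, mEC1dup/dup -2.03 to -1.48), with mEC1dup/dup below WT; against the same reference this was seen in 0.688% of all tested genes. The difference of means was -0.52 for Zfp750, -0.41 for Ovol1, -0.40 for Cebpa, -0.25 for Grhl3, -0.17 for Trp63, -0.14 for Klf5, 0.02 for Grhl2 and 0.23 for Klf4, and all of these overlapped between genotypes. For Cebpa the overlap came from mEC1dup/dup embryo 1 at 1.02, beside a WT range of 1.00 to 1.22. With the reference as a covariate in edgeR, none of the 3 called factors was called, with log2 fold changes of -0.52 for Grhl1, -0.51 for Zfp750 and -0.41 for Cebpa (edgeR adjusted p = 0.392, 0.312 and 0.198).

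**Figure D4:**
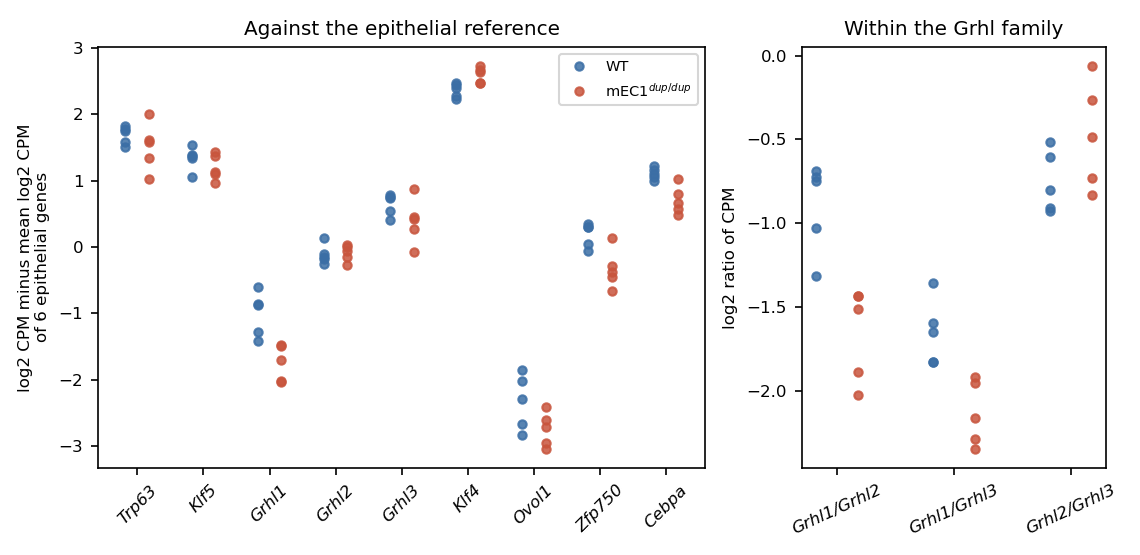
Left, log2 CPM of each factor minus the mean log2 CPM of the 6 epithelial reference genes in the same embryo; right, log2 ratios of CPM within the Grhl family. Points are embryos, blue for WT and red for mEC1dup/dup; Grhl1 alone is apart on the left, and both ratios that contain Grhl1 are apart on the right.

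Genes known to act downstream of these factors, and other regulators of the epidermis, were read from lists. The lists, like the members, were chosen with earlier results of these data known. Of 8 basal genes downstream of p63, 4 were called lower, beside 1.81% of all tested genes, and none higher. All 8 were below 0, as were 51.2% of all tested genes, and their median log2 fold change was -0.47. Perp, a desmosome-associated target of p63, fell from 156.9 ± 39.99 to 90.8 ± 11.8 CPM (log2 fold change -0.79, edgeR adjusted p = 0.0136). The basal keratins Krt5 and Krt14 had log2 fold changes of -0.69 and -0.64 (edgeR adjusted p = 0.0257 and 0.0296), and the Notch ligand Jag2 one of -0.29 (edgeR adjusted p = 0.0407). Of the genes not called, Col17a1, a hemidesmosomal collagen, had a log2 fold change of -0.51 (edgeR adjusted p = 0.127) and Fras1, a basement membrane protein, one of -0.17 (edgeR adjusted p = 0.326). Trp63 itself had a log2 fold change of -0.35 and was not called, as given above. Its 95% interval (-0.65 to -0.056) lay below 0, so the missing call does not show an unchanged level.

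Of 6 genes downstream of the grainyhead factors, 2 were called lower, beside 1.81% of all tested genes, and none higher. Their median log2 fold change was -0.55. DESeq2 called 4 of the 6, beside 830 of the 16103 genes it tested, and limma-voom 2, beside 394 of 16426. Dsg1a, a desmosomal cadherin of differentiating layers, fell from 16.02 ± 5.33 to 5.21 ± 0.950 CPM (log2 fold change -1.62, edgeR adjusted p = 0.00327). Rab25, an epithelial trafficking GTPase, fell from 7.85 ± 1.84 to 3.95 ± 0.735 CPM (log2 fold change -0.99, edgeR adjusted p = 0.0125). The adherens junction cadherin Cdh1 and the splicing regulator Esrp1 were not called, with log2 fold changes of -0.45 and -0.35 (edgeR adjusted p = 0.0947 and 0.0562).

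The differentiation list had the lowest median log2 fold change of the lists read, and no test compared the lists. Of its 15 genes 10 could be tested, 7 were called lower, beside 1.81% of all tested genes, and the median of the 10 was -1.86. The study had already named Krt77, Dmkn and Krtdap from the same libraries, so their calls are not separate support. Krt77, a keratin of suprabasal cells, had the largest log2 fold change at -3.75 (24.0 ± 16.4 to 1.77 ± 0.391 CPM, edgeR adjusted p = 0.00188). Dmkn and Dsc1, a secreted epidermal protein and a desmosomal cadherin, had log2 fold changes of -2.98 and -2.87 (edgeR adjusted p = 0.000692 and 0.00446). The early differentiation keratins Krt1 and Krt10 had log2 fold changes of -1.97 and -1.86 (edgeR adjusted p = 0.00353 and 0.00188). Tgm3, a cross-linking enzyme, and Krtdap had log2 fold changes of -1.86 and -1.72 (edgeR adjusted p = 0.00944 and 0.00327). All 7 called genes had groups that did not overlap, with mEC1dup/dup below WT, an arrangement seen in 2.75% of all tested genes. Loricrin and Sbsn, which belong to the outer layers, were not called, with log2 fold changes of -0.39 and -0.81 (edgeR adjusted p = 0.344 and 0.127). Ivl, Flg, Sprr1a, Sprr1b and Alox12b did not pass the filter on low counts, with Ivl at 7 counts or fewer and Flg at 1 or fewer in every library.

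Among 18 other regulators of the epidermis, 1 was called lower and 1 higher, beside 1.81% and 0.834% of all tested genes. Their median log2 fold change was -0.27, and no test set the list against all tested genes. Pou2f3, a POU factor of suprabasal cells, fell from 9.55 ± 2.93 to 3.91 ± 1.63 CPM (log2 fold change -1.29, edgeR adjusted p = 0.0273). Dlx3, a homeobox factor of the epidermis that mesenchyme also expresses, rose from 71.2 ± 7.31 to 90.8 ± 8.60 CPM (log2 fold change 0.35, edgeR adjusted p = 0.0309). Both had groups that did not overlap, as did 2.75% of all tested genes with mEC1dup/dup below WT and 2.33% with it above. Hopx reached an edgeR adjusted p of 0.0273 with a log2 fold change of -1.28 but lay under the minimum level, and it was picked out after its values were seen. Rbpj and Hes1, of the Notch pathway, were not called, with log2 fold changes of -0.01 and 0.13 (edgeR adjusted p = 0.948 and 0.36).

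**Figure D5:**
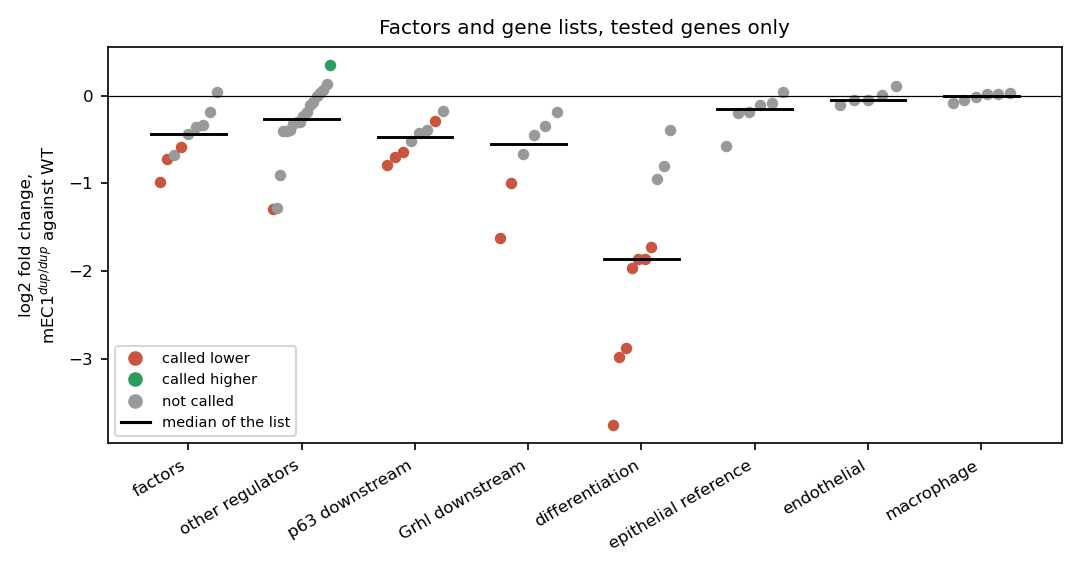
Fitted log2 fold change (vertical axis, mEC1dup/dup against WT) of the 9 factors and of the tested genes of each list, with red points called lower, green called higher and grey not called, and a black line at the median of each list. The medians are -0.44 for the factors, -0.47 for genes downstream of p63 and -1.86 for differentiation genes, beside -0.15 for the epithelial reference and values near 0 for endothelial and macrophage genes; the muscle and chondrocyte lists, which are not drawn, have medians of -0.44 and -0.49.

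Markers of the other cell types of the prominence were read in the same fit. None of 5 fibroblast, 5 endothelial, 6 macrophage and 4 chondrocyte markers was called with edgeR, DESeq2 or limma-voom (2, 1, 0 and 2 of them had an unadjusted edgeR p under 0.05). Of 5 muscle markers, 2 (Myh3 and Ckm) were called lower, beside 1.81% of all tested genes. The median log2 fold changes were -0.18 for fibroblast, -0.05 for endothelial, 0.00049 for macrophage, -0.49 for chondrocyte, -0.44 for muscle and -0.82 for the 2 tested adipogenic markers, so some lists outside the epithelium had medians as low as that of the factors. The summed CPM of the fibroblast markers was 9005 to 14957 in WT and 9616 to 11109 in mEC1dup/dup, that of the endothelial markers 408 to 517 and 434 to 488, and that of the macrophage markers 129.9 to 148 and 125 to 153. The muscle markers summed to 792 to 1212 CPM in WT and 509 to 849 in mEC1dup/dup, and the chondrocyte markers to 3760 to 6516 and 1705 to 5088. All of these ranges overlapped, and the part of a changed mix of cells in the results for the factors was not tested.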

How the data were processed

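RNA of 10 whole E14.5 pinna prominences (5 WT, 5 mEC1dup/dup embryos) was sequenced after poly(A) selection. The authors deposited raw read counts per gene, made with fastp, FastQC, STAR on GRCm39 and featureCounts, per the labels; the strand setting was not given in the sources used here. Ensembl identifiers were paired with symbols in the GENCODE annotation of GRCm39 for 49355 of 53465 genes; the rest held 0.111% of counts. The members and lists were chosen with earlier results of these data known. Counts were fitted with edgeR 4.0.16 in R 4.3.3 (filterByExpr by genotype, TMM, quasi-likelihood test over all 16426 tested genes, Benjamini-Hochberg adjustment); a called gene had an adjusted p no higher than 0.05 and reached 1 in log2 CPM averaged over the embryos. The code was tested on simulated counts. Per-embryo log2 CPM used a prior count of 2. Libraries held 17461544 to 18462073 counts; among WT embryos the coefficient of variation of each member exceeded what counting alone gives (17.5% against 2.97% for Trp63). Named genes were the members, called genes of 4 lists with up to 2 highest uncalled genes of each, and the 3 genes most like each member, of which 1 is not reported here. Alternatives were DESeq2 1.42.0, limma-voom (limma 3.58.1), other size factors, filters, thresholds, covariates, the replicate number as a block, and leaving out each embryo. Replicates were siblings from different litters according to the study's reporting form, with no litter given for single embryos. Figures were drawn with matplotlib 3.10.9.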

Additional observations from a re-analysis of the deposited data

Results flagged for a closer look

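Grhl2 in mEC1dup/dup embryo 2 lay at 14.3 CPM, away from the other mEC1dup/dup embryos, which lay between 16.3 and 16.9 CPM, by a gap that is large for the range of its group (Dixon's ratio 0.789). It was the only one of 18 groups tested, 9 factors in each genotype, that passed this test, and chance alone marks about 1 group in 20.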

How the results depend on the processing

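The members called lower were the same 3 (Grhl1, Zfp750, Cebpa) with DESeq2 size factors, with total counts only, without a filter on low counts, with at least 10 counts in every embryo and without a minimum level; no member was called higher under any alternative. DESeq2's Wald test called 509 genes lower and 321 higher and added Grhl3 (adjusted p = 0.0468), and limma-voom lost Grhl1 (adjusted p = 0.0501). With the replicate number as a block (replicate block), 5 members and 487 genes were called lower, Trp63 (adjusted p = 0.00304) and Grhl3 (0.0122) being added; no source says that the numbers pair embryos. In their deviations, same-numbered embryos correlated at -0.064 for number 1 and 0.225 to 0.428 for the others (mean 0.231, beside -0.057 for embryos of different numbers), and 2 of 5 embryos of each genotype correlated best with their own number, so whether the numbers pair the embryos is not settled. At an adjusted p of at most 0.01, 0 members were called, with 62 genes lower and 16 higher. With Xist as a covariate 0 members, 1 gene lower and 2 higher were called (Hmx1, Hba-x and Hba-a2 in all), and Klf4 turned to -0.063. With the embryonic share of globin added to the fit 0 members and 0 genes in either direction were called, and the log2 fold changes turned to 0.41 for Trp63, 0.83 for Klf5, 1.61 for Grhl1, 1.11 for Grhl2, 0.75 for Grhl3, 2.27 for Ovol1, 0.72 for Zfp750 and 0.52 for Cebpa; this share does not overlap between genotypes, so the fit has little left to tell them apart. With the epithelial reference as a covariate 0 members, 49 genes lower and 10 higher were called, and Grhl2 turned to 0.11. Leaving out 1 embryo at a time left 1 to 4 members called lower, 120 to 476 genes called lower and 34 to 179 called higher; the lowest counts came without mEC1dup/dup embryo 3, the highest without WT embryo 4, where Klf4 turned to -0.013 (0.084 without WT embryo 1, the other end of its range). Against basal genes downstream of p63 in place of the epithelial reference, the differences were 0.52 for Klf4, 0.31 for Grhl2, 0.15 for Klf5, 0.12 for Trp63, and 0.033 for Grhl3, while Grhl1 (-0.45), Zfp750 (-0.23), Ovol1 (-0.12) and Cebpa (-0.11) stayed below 0. The causes of these shifts were not tested. Depth is lowest for Ovol1, with 35 counts in its lowest library.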
